A study of Homo sapiens with 12 samples.

Results

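The miR-146 and miR-155 microRNAs were examined in small RNA libraries of 2 pancreatic ductal adenocarcinoma (PDAC) cell lines after depletion of MYEOV, a gene that is overexpressed in several tumor types. The 4 members, hsa-mir-146a-5p, hsa-mir-146b-5p, hsa-mir-146b-3p and hsa-mir-155-5p, were taken by name from the 1733 mature miRNAs listed in any of the 12 libraries. AsPC-1 is a line derived from the ascites of a patient with PDAC and PANC-1 is a line derived from a primary pancreatic tumor. Each line was represented by 3 control libraries and 3 libraries of cells transfected with siRNA against MYEOV (si-MYEOV), and RNA was prepared 48 h after transfection. The labels describe the controls as untreated, whereas the transfection protocol names a negative control siRNA (siNC), so whether the controls received siRNA is uncertain. The protocol lists siMYEOV-1 and siMYEOV-2 as reagents, and the titles number the knockdown libraries of a line si-MYEOV-1 to si-MYEOV-3. These numbers were read as replicates, but they could also name the siRNA, in which case the spread between si-MYEOV libraries would include that between reagents. Nothing in the labels says that the libraries of a group came from separate cultures, and the p-values measure only the spread between these libraries. MYEOV mRNA is not among the measured features, so the knockdown itself was not measured here.

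NF-kB is a transcription factor that some inflammatory receptors activate through the kinase IRAK1 and the ubiquitin ligase TRAF6. miR-146a is a classic NF-kB target that represses IRAK1 and TRAF6 and thereby forms a negative feedback loop. miR-146b comes from another chromosome and shares the seed of miR-146a, the stretch near the 5′ end that selects target mRNAs. miR-155 is processed from the transcript MIR155HG, is induced by NF-kB and AP-1 in activated immune cells and represses, among others, SOCS1 and SHIP1 (INPP5D), both brakes on immune signaling.

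The mature sequences show which members can act through the same targets and whether their reads can be told apart. They are given from RefSeq (GRCh38.p14), 5′ to 3′, with the seed (bases 2 to 8) in capitals.
miR-146a-5p: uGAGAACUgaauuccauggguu
miR-146b-5p: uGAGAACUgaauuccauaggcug
miR-146b-3p: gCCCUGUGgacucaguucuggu
miR-155-5p: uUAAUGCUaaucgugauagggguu
The miR-146a-5p and miR-146b-5p sequences were identical over the first 17 bases and matched at 20 of 22 aligned positions, with the differences G18A and U21C (the miR-146a-5p base first, positions counted from the 5′ end). Because the authors kept perfect matches of 18 to 28 nt, a read that starts at the usual 5′ end reaches the first difference. Of the 2370 mature miRNAs in the RefSeq table, 2 others carried the miR-146a-5p seed, miR-146b-5p and miR-7153-5p. No other entry carried the seed of miR-146b-3p or that of miR-155-5p.

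In hg19 (GRCh37), the build of the deposited data, the miR-146a hairpin matched once, at chr5:159912359-159912457 on the plus strand, and overlaps an exon of the long noncoding RNA gene MIR3142HG. The miR-146b hairpin matched once, at chr10:104196269-104196341 on the plus strand, where GENCODE annotates only the miRNA gene itself. The mature miR-155-5p sequence matched once, at chr21:26946295-26946318 on the plus strand, in an exon of the long noncoding RNA gene MIR155HG.

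The promoters of the host transcripts are shown because both are textbook targets of inflammatory transcription factors, and their use in the lines was not measured. A stretch of the MIR3142HG promoter at chr5:159895104-159895182 (hg19, plus strand, with the 9-letter kB core GGACTTTCC in capitals) starts the core 119 bases before the RefSeq gene start.
MIR3142HG: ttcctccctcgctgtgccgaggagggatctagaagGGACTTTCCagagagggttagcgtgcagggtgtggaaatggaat
A stretch of the MIR155HG promoter at chr21:26934362-26934438 (hg19, plus strand, with the AP-1 motif TGAGTCA in capitals) starts the motif 60 bases before the RefSeq gene start.
MIR155HG: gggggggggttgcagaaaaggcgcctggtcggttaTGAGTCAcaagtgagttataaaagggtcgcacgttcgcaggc
Both strands of 35116 RefSeq promoters of 300 bases were searched. The core GGACTTTCC occurred in 0.370% of them, the degenerate NF-kB consensus, which includes the core in the MIR3142HG promoter, in 11.3%, and TGAGTCA in 4.95%. MIR155HG held neither NF-kB motif and MIR3142HG did not hold TGAGTCA in these windows. GENCODE places the starts of both genes farther upstream, so other promoters were not searched, and these matches describe letters, not binding.

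The 12 libraries held 3805084 to 7311783 counts, and 1014 to 1144 miRNAs were listed per library. A count of 0 allows a level of up to 0.410 to 0.788 CPM (the usual library-size unit for counts, where the limit stands for 3 counts per library and covers counting error only). The epithelial miR-200 family markers, 5 of 5 listed in both lines, summed to 48678 to 52667 CPM in AsPC-1 and to 212 to 276 CPM in PANC-1, so these defining epithelial markers were low in PANC-1. AsPC-1 control replicate 1 stood apart from the other 2 controls of its line (chi-square per degree of freedom 224 and 183, against 22.1 between the other 2), and values without it are given with the results.

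All 4 members were lower in AsPC-1 than in PANC-1 in the control libraries, and the differences ranged from 1.94-fold for miR-155-5p to 91.3-fold for miR-146a-5p. The line comparison called 82.8% of the 627 miRNAs tested and 46.7% as lower in AsPC-1 (edgeR quasi-likelihood test with Benjamini-Hochberg adjustment, adjusted p under 0.05), so calls are common in it. LFC is the log2 fold change, AsPC-1 over PANC-1 here, with CPM scaled by TMM factors over the 6 controls. In bulk RNA, a lower level per cell and fewer cells with the miRNA cannot be told apart.

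miR-146a-5p, the feedback repressor of IRAK1 and TRAF6, was counted 380, 504 and 432 times in the AsPC-1 controls and 31448, 38298 and 25541 times in the PANC-1 controls. The groups were far apart, at 70.7 ± 8.48 CPM (SD, n = 3) in AsPC-1 and 6456 ± 272 CPM (SD, n = 3) in PANC-1. The LFC was -6.51 (SE 0.13, edgeR adjusted p = 1.2e-15), a level 91.3-fold lower in AsPC-1 with a 95% interval of 75.3 to 110.6. miR-146a-5p was the 27th most abundant of the 1374 miRNAs listed in PANC-1 controls and the 187th of the 1319 listed in AsPC-1 controls. The median size of the LFC over all tested miRNAs was 1.49.

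The opposite arm, hsa-mir-146a-3p, was listed in none of the 6 AsPC-1 libraries and in all 6 PANC-1 libraries. Its counts were 29, 20 and 22 in the PANC-1 controls and 34, 30 and 31 after MYEOV knockdown. Against the limit set by 3 counts over the AsPC-1 group, PANC-1 was at least 29.9-fold higher in the controls with TMM factors over the 6 controls, and at least 36.1-fold higher in the si-MYEOV libraries with TMM factors over the 12 libraries. Upper-quartile factors lowered these limits to 15.8-fold and 20.2-fold.

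miR-146b-5p, which shares the miR-146a-5p seed, was counted 714, 926 and 804 times in the AsPC-1 controls and 2363, 3189 and 2412 times in the PANC-1 controls. The levels were 131 ± 14.3 CPM (SD, n = 3) and 543 ± 54.6 CPM (SD, n = 3), without overlap. The LFC was -2.05 (SE 0.12, edgeR adjusted p = 4.35e-10), or 4.14-fold lower in AsPC-1 (95% interval 3.47 to 4.93).

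miR-146b-3p, the opposite arm of the same hairpin, was counted 12, 9 and 18 times in the AsPC-1 controls and 29, 33 and 24 times in the PANC-1 controls. These counts lie close to the filter on low counts, and the level was 2.09 ± 0.682 CPM (SD, n = 3) in AsPC-1 and 5.85 ± 0.0533 CPM (SD, n = 3) in PANC-1. The LFC was -1.47 (SE 0.28, edgeR adjusted p = 0.000239), with a wide 95% interval of 1.82-fold to 4.23-fold lower in AsPC-1.

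miR-155-5p, the repressor of SOCS1, was counted 3831, 4531 and 4449 times in the AsPC-1 controls and 6172, 8098 and 5474 times in the PANC-1 controls. The groups did not overlap once scaled, at 688 ± 35.9 CPM (SD, n = 3) and 1339 ± 84.2 CPM (SD, n = 3). The LFC was -0.96 (SE 0.10, edgeR adjusted p = 2.89e-07), or 1.94-fold lower in AsPC-1 (95% interval 1.68 to 2.25). Its opposite arm, hsa-mir-155-3p, was near the detection limit, with 4 to 14 counts in each of the 12 libraries, and was filtered out of this test.

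The scaling between these unlike lines moved every LFC. Scaling by total count shifted the LFC of miR-146a-5p to -6.85 and that of miR-155-5p to -1.30. Upper-quartile factors shifted the median of all tested miRNAs from -0.27 to 0.65, and under them miR-155-5p was at -0.04 (edgeR adjusted p = 0.768) and miR-146b-3p at -0.55 (edgeR adjusted p = 0.0895), whereas miR-146a-5p at -5.59 and miR-146b-5p at -1.12 still passed the threshold. Thus the calls for miR-155-5p and miR-146b-3p held under TMM, DESeq2 and total count scaling and were lost under upper-quartile factors. Without AsPC-1 control replicate 1 the LFC was -6.42 for miR-146a-5p, -1.96 for miR-146b-5p, -1.42 for miR-146b-3p and -0.89 for miR-155-5p, and all 4 passed the threshold.

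**Figure D1:**
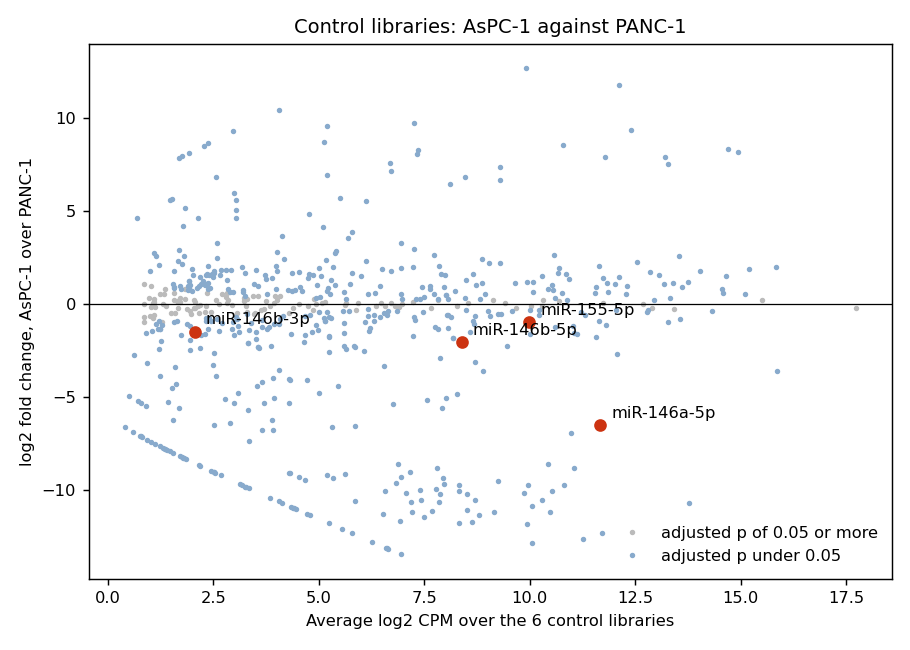
Each point is 1 of the 627 miRNAs tested between the AsPC-1 and PANC-1 controls, with its average log2 CPM on the x axis and its LFC (AsPC-1 over PANC-1) on the y axis, blue where the adjusted p was under 0.05, gray otherwise, and red for the 4 members. All 4 members lie below 0, miR-146a-5p at -6.51 and miR-155-5p, at -0.96, within the main cloud.

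Markers of other cell types were summed by total count. Blood cell markers came to 397 to 509 CPM in AsPC-1 (6 of 6 listed) and to 429 to 563 CPM in PANC-1 (5 of 6 listed), so the sums overlapped. miR-486-5p made up most of them and was higher in AsPC-1 controls on the TMM scaling (LFC 0.30, edgeR adjusted p = 0.0163). miR-150-5p, a lymphocyte marker, was also higher in AsPC-1 (LFC 4.61, edgeR adjusted p = 2.67e-07), at 7.19 CPM against 0.289 CPM. miR-142-3p and miR-142-5p were below 1 CPM on average in both lines and higher in AsPC-1 without overlap, miR-451a overlapped, and the myeloid marker miR-223-3p had 1 count in all 12 libraries together. Stromal markers summed to 4.24 to 5.63 CPM in AsPC-1 and to 60.2 to 71.4 CPM in PANC-1 (4 of 4 listed in both). Their part in the difference between the lines was not tested.

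The order of the members differed between the lines. In AsPC-1 controls miR-155-5p was the most abundant member, followed by miR-146b-5p, miR-146a-5p and miR-146b-3p, whereas in PANC-1 controls miR-146a-5p led, followed by miR-155-5p, miR-146b-5p and miR-146b-3p. These are CPM per mature miRNA of 22 to 24 nt, and how well each sequence was captured in the library was not measured. With TMM factors over all 12 libraries, each member was higher in all 6 PANC-1 than in all 6 AsPC-1 libraries. The share of all miRNAs that separate in this way was not counted, and 46.7% of those tested were called lower in AsPC-1 controls. Upper-quartile factors do not support the order of PANC-1 above AsPC-1 for miR-155-5p and miR-146b-3p (line LFC -0.04 and -0.55, not called). The si-MYEOV and control groups of a line, neighbors in that order, did not differ past the threshold.

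**Figure D2:**
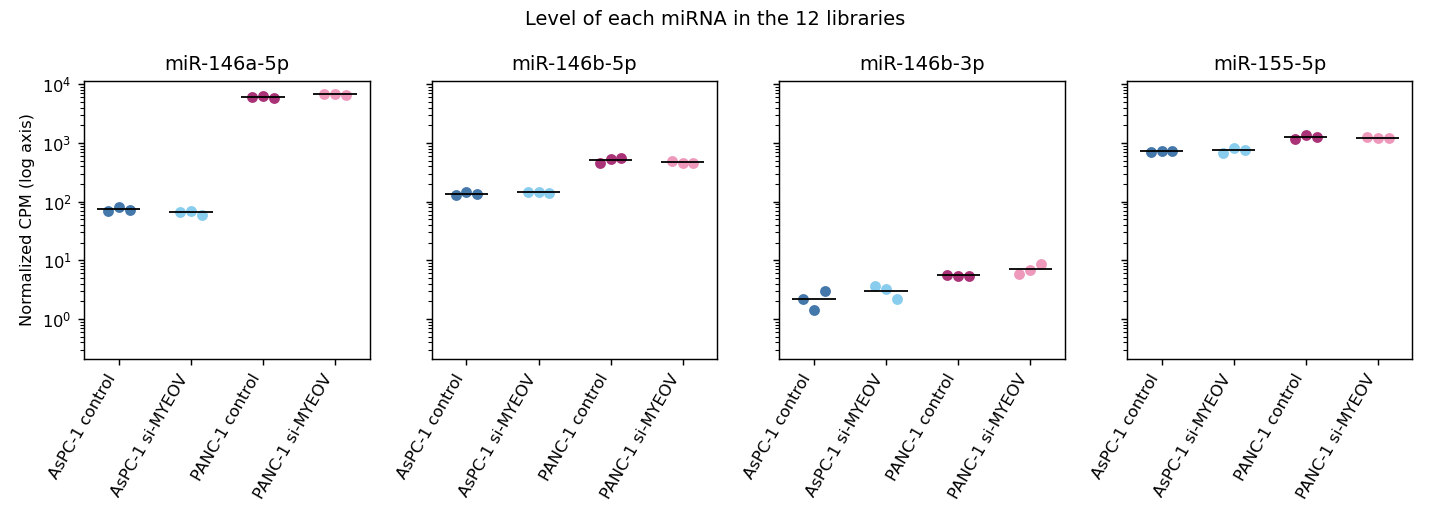
Normalized CPM on a log axis for each member in the 3 libraries of each group, scaled with TMM factors over all 12 libraries, with points for libraries and a line for the group mean. On this scaling the PANC-1 groups lie above the AsPC-1 groups in every panel, and the step is largest for miR-146a-5p (under upper-quartile factors those of miR-155-5p and miR-146b-3p were not called), while the si-MYEOV and control groups of a line lie side by side.

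None of the 4 members was a DE miRNA upon MYEOV knockdown in either line. Of all tested miRNAs, the knockdown comparison called 11.4% of 498 (AsPC-1) and 22.0% of 551 (PANC-1), and all 4 members were tested in both (edgeR, adjusted p under 0.05). These backgrounds rest on single libraries, since leaving out 1 library moved the calls from 57 to between 24 (without si-MYEOV replicate 1) and 102 (without control replicate 1) in AsPC-1, and from 121 to between 55 (without si-MYEOV replicate 3) and 129 in PANC-1. LFC is si-MYEOV over control from here on, with CPM scaled within each line. In AsPC-1, 1 of the 4 members had every si-MYEOV library above every control library, which held for 16.9% of all tested miRNAs, and in PANC-1 this was the case for 2 of 4 members against 19.6%. Members and shares were both counted on TMM factors within a line. Over library totals, neither of the 2 PANC-1 members separated.

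In AsPC-1, miR-155-5p stood at 566, 641 and 622 CPM in the controls and at 667, 680 and 706 CPM after MYEOV depletion. All 3 si-MYEOV libraries were above the 3 controls, by a margin smaller than the spread of the controls. On the scaling of all 12 libraries this separation was lost, with the first si-MYEOV library at 681 CPM below the controls at 699, 717 and 733 CPM, and the LFC in that fit was 0.07. Scaled within AsPC-1, the LFC was 0.17 (SE 0.08, edgeR adjusted p = 0.229), and its 95% interval ran from 0.994-fold to 1.26-fold. Without AsPC-1 control replicate 1, the lowest of the controls, it was 0.12 (edgeR adjusted p = 0.178).

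miR-146a-5p in AsPC-1 was at 56.2, 71.3 and 60.4 CPM in the controls and at 66.4, 58.1 and 54.7 CPM in the si-MYEOV libraries, and the groups overlapped. Its LFC was -0.07 (SE 0.12, edgeR adjusted p = 0.781), with an interval of 0.798-fold to 1.14-fold. miR-146b-5p was at 106, 131 and 112 CPM in the controls and at 144, 124 and 131 CPM after knockdown. These groups also overlapped, and the LFC was 0.19 (SE 0.10, edgeR adjusted p = 0.276), with an interval of 0.978-fold to 1.33-fold. For miR-146b-3p the counts after knockdown were 21, 16 and 11, against 12, 9 and 18 in the controls, and the LFC of 0.57 had an interval of 0.854-fold to 2.59-fold (edgeR adjusted p = 0.357). At this depth the counts of that arm do not tell a change within the interval from no change. Without AsPC-1 control replicate 1 the LFC was -0.13 for miR-146a-5p, 0.13 for miR-146b-5p and 0.55 for miR-146b-3p, and none passed the threshold. The miR-146b-3p value was 0.33 without AsPC-1 si-MYEOV replicate 1 and 0.86 without AsPC-1 control replicate 3.

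In PANC-1, miR-146a-5p was at 6920, 7194 and 6608 CPM in the controls and at 7858, 7701 and 7645 CPM after MYEOV depletion. All 3 si-MYEOV libraries were above the 3 controls, and the means were 6907 ± 293 and 7734 ± 110 CPM (SD, n = 3 each). The LFC was 0.16 (SE 0.08, edgeR adjusted p = 0.155), and its interval of 0.996-fold to 1.26-fold bounds the change. Scaled by total count the LFC was 0.02, and the groups overlapped. Control 2 held 38298 of 5049361 counts, a larger share than the 34688 of 4931799 in si-MYEOV 3.

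The opposite arm miR-146a-3p had an LFC of 0.59 in PANC-1 (SE 0.26, edgeR adjusted p = 0.108), also with all 3 si-MYEOV libraries above the controls. Over library totals the groups of this arm overlapped, with 29 of 4198877 counts in control 1 and 31 of 4931799 in si-MYEOV 3. It was not tested in AsPC-1, where it was not listed.

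miR-146b-5p in PANC-1 was at 520, 599 and 624 CPM in the controls and at 552, 510 and 523 CPM in the si-MYEOV libraries. The groups overlapped through the first control, and the LFC was -0.14 (SE 0.09, edgeR adjusted p = 0.262), with an interval of 0.805-fold to 1.03-fold. This value passed the threshold in 2 other settings, at -0.28 with total count scaling (edgeR adjusted p = 0.0287) and at -0.22 without PANC-1 control replicate 1 (edgeR adjusted p = 0.0473). Total count scaling moved the median of all tested miRNAs from 0.03 to -0.12 in this comparison.

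miR-146b-3p in PANC-1 was counted 29, 33 and 24 times in the controls and 25, 29 and 45 times after knockdown, or 6.38, 6.20 and 6.21 CPM against 6.51, 7.63 and 9.92 CPM. The groups did not overlap, by a small margin. Over library totals the groups overlapped, with 29 of 4198877 counts in control 1 and 25 of 3928990 in si-MYEOV 1. The LFC was 0.37 (SE 0.25, edgeR adjusted p = 0.292). It was 0.17 without si-MYEOV replicate 3, the library with 45 counts, and 0.49 without si-MYEOV replicate 1. miR-155-5p was at 1358, 1521 and 1416 CPM in the controls and at 1414, 1400 and 1385 CPM after knockdown. The si-MYEOV libraries lay within the range of the controls, and the LFC was -0.03 (SE 0.08, edgeR adjusted p = 0.799), with an interval on the log2 scale of -0.20 to 0.13.

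**Figure D3:**
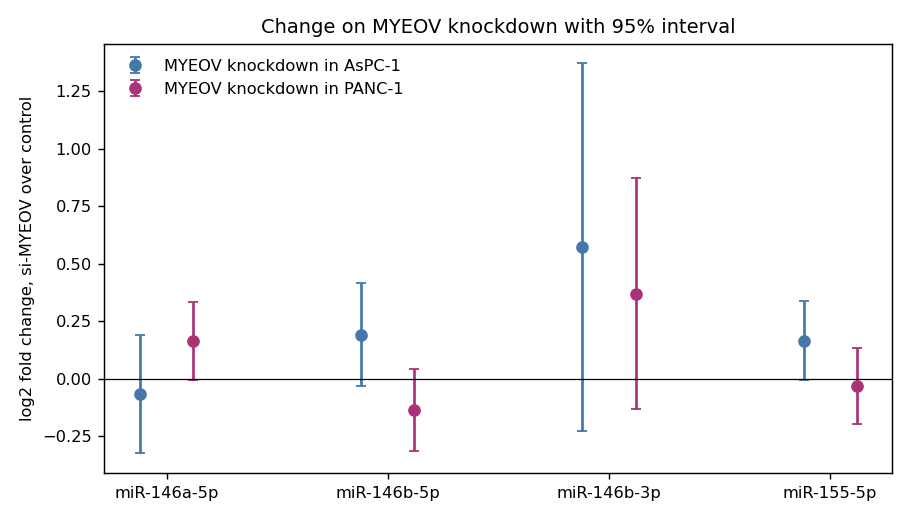
LFC (si-MYEOV over control) of each member in AsPC-1 (blue) and PANC-1 (purple), with points for the edgeR estimate and bars for the 95% interval from 3 against 3 libraries. All 8 intervals include 0, and they are widest for miR-146b-3p, the least abundant member.

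A line-by-treatment interaction term in a fit of all 12 libraries addressed whether the lines responded differently to the knockdown. It called 0.308% of 650 miRNAs, and none of the 4 members. The interaction LFC (AsPC-1 minus PANC-1) was -0.33 for miR-146a-5p (SE 0.14, edgeR adjusted p = 0.330), against a median of -0.12 over all miRNAs. It was 0.23 for miR-146b-5p (edgeR adjusted p = 0.567), and 0.10 for both miR-146b-3p and miR-155-5p (edgeR adjusted p = 0.987 and 0.790). These sizes moved with the scaling, since total counts took the median of all miRNAs to 0.10 and the interaction LFC to -0.10 for miR-146a-5p, 0.46 for miR-146b-5p, 0.34 for miR-146b-3p and 0.33 for miR-155-5p. Without AsPC-1 control replicate 1 they were -0.40, 0.17, 0.08 and 0.06 in the same order, and none of the 4 was called in either setting.

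Ratios within a library do not depend on the scaling between libraries. They were computed on counts with 0.5 added and compared with exact two-sided permutation tests, in which treatment was relabeled within lines or line within treatments (400 relabelings, smallest p 0.005), and the p-values were adjusted over 9 tests. For the difference of the knockdown effects between the lines, this relabeling takes no effect in either line as its null. It therefore does not test whether the effects are equal. The miR-146a-5p to miR-146b-5p ratio compares the counts of the members that share the seed. It was 0.533, 0.545 and 0.538 in the AsPC-1 controls and 13.3, 12.01 and 10.6 in the PANC-1 controls. By counts, miR-146b-5p was the larger of the pair in AsPC-1 and miR-146a-5p in PANC-1, but how well each was captured was not measured. The line difference was -4.75 on the log2 scale over all 12 libraries (exact permutation p = 0.005, the smallest possible, adjusted p = 0.015).

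After MYEOV depletion the ratio was 0.461, 0.469 and 0.419 in AsPC-1, below all 3 controls, and 14.2, 15.1 and 14.6 in PANC-1, above all 3 controls. Within a line, 3 against 3 libraries cannot give an exact permutation p under 0.1, which is what both lines gave, for log2 differences of -0.26 (AsPC-1) and 0.30 (PANC-1). The mean knockdown effect over both lines was 0.02 (exact permutation p = 0.86, adjusted p = 0.88). The difference of the effects, AsPC-1 minus PANC-1, was -0.56 (exact permutation p = 0.005, adjusted p = 0.015), but that test was added after the groups had been seen to separate in opposite directions, so its p is no independent support. Without AsPC-1 control replicate 1 the line difference of the ratio was -4.74, the mean knockdown effect 0.015 and the difference of the effects -0.57.

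The summed level of miR-146a-5p and miR-146b-5p gives the amount of the shared seed. On the scaling of all 12 libraries it was 210 ± 14.3 CPM in AsPC-1 controls and 211 ± 7.74 CPM after knockdown, and 6595 ± 257 CPM and 7270 ± 143 CPM in PANC-1 (SD, n = 3 each). The sum was 32.9-fold lower in AsPC-1 over both treatments (log2 difference -5.04, exact permutation p = 0.005, adjusted p = 0.015). The mean knockdown effect was 0.08 (exact permutation p = 0.11, adjusted p = 0.165), and the difference of the effects between the lines was -0.13 (exact permutation p = 0.16, adjusted p = 0.206), which turned to 0.10 with total count scaling. These values were -5.02, 0.058 and -0.17 without AsPC-1 control replicate 1.

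The ratio of the 5p to the 3p arm of miR-146b compares both products of 1 hairpin. With 0.5 added to each count, the ratio of the 5p to the 3p arm was 38.9 to 98.5 across the 12 libraries. The mean log2 ratio was 5.96 in AsPC-1 controls, 5.58 in AsPC-1 si-MYEOV, 6.51 in PANC-1 controls and 6.04 in PANC-1 si-MYEOV libraries, with SDs of 0.593, 0.357, 0.160 and 0.338. Neither the line difference of -0.50 (exact permutation p = 0.05, adjusted p = 0.113) nor the mean knockdown effect of -0.42 (exact permutation p = 0.08, adjusted p = 0.144) passed the threshold, and the 3p counts of 9 to 45 limit both. Both depended on single libraries: leaving out each in turn gave a line difference of -0.66 (exact permutation p = 0.015, without AsPC-1 control replicate 2) to -0.37, and a knockdown effect of -0.55 (exact permutation p = 0.03, without AsPC-1 control replicate 3) to -0.26. A pseudocount of 5 took the line difference to -0.70 (exact permutation p = 0.005), and without AsPC-1 control replicate 1 both were at -0.47 and -0.45.

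**Figure D4:**
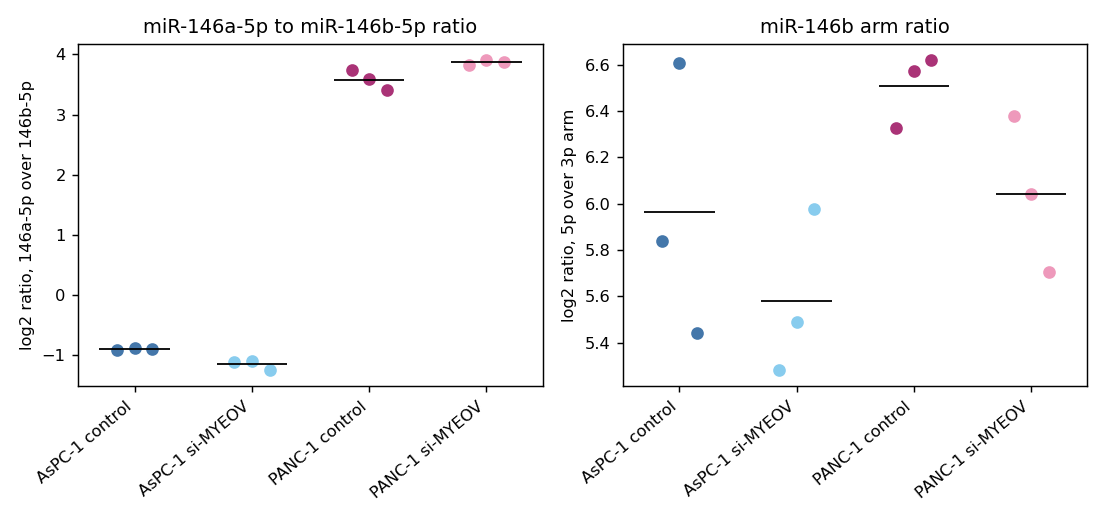
Left, log2 ratio of miR-146a-5p to miR-146b-5p, and right, log2 ratio of the 5p to the 3p arm of miR-146b, per library (points) and group mean (lines), on counts with 0.5 added. On the left the si-MYEOV libraries lie below the controls in AsPC-1 and above them in PANC-1, while on the right the control and si-MYEOV groups overlap in both lines.

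Other miRNAs tied to NF-kB or inflammation were taken as a list of 15, of which 14 were tested and miR-223-3p was too low. No list member was called upon knockdown in AsPC-1 (median LFC -0.017, against -0.0047 over all miRNAs, of which 11.4% were called). In PANC-1, 1 of 14 rose and 1 of 14 fell (median -0.07, against 0.03), where 12.7% of all tested miRNAs rose and 9.26% fell. miR-21-5p, an abundant oncogenic miRNA in many carcinomas, rose with an LFC of 0.30 (SE 0.10, edgeR adjusted p = 0.0268), and miR-23b-3p, which has been linked to restraint of inflammatory cytokine signaling, fell with an LFC of -0.22 (SE 0.08, edgeR adjusted p = 0.0463). Neither direction flipped with scaling, but under upper-quartile factors neither passed (edgeR adjusted p = 0.140 and 0.231), and with total count scaling none of the list rose and 5 fell, beside 26 that rose and 117 that fell of all 551.

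Between the lines, 4 of the 14 were higher in AsPC-1 and 6 lower, where 36.0% of all tested miRNAs were higher and 46.7% lower. miR-9-5p, which targets NFKB1, was 448-fold lower in AsPC-1 (LFC -8.81, SE 0.16, edgeR adjusted p = 4.14e-16), a larger difference than that of miR-146a-5p. miR-125b-5p was also lower (LFC -2.70, SE 0.11), whereas miR-221-3p and miR-222-3p, which repress the cell cycle inhibitor p27, were higher (LFC 1.22 and 2.07). These 4 directions held under each scaling, but the sizes moved. In the order named, the LFC was -7.89, -1.78, 2.14 and 2.99 under upper-quartile factors and -9.14, -3.03, 0.88 and 1.73 with total counts. Under upper-quartile factors the list had 7 higher and 2 lower, beside 345 higher and 200 lower of all 627. None of the 14 passed the interaction test. With AsPC-1 control replicate 1 left out, the list still had no call upon knockdown in AsPC-1 (20.2% of all tested miRNAs were called), had 5 higher and 7 lower between the lines (83.7% called), and had 1 interaction call, miR-21-5p (3.76% called).

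The miRNAs with the profile most like each member over the 12 libraries were found among 650 miRNAs by the root mean square difference of log2 CPM profiles, each centered on its mean. For miR-146a-5p these were miR-154-5p (0.120), miR-10b-3p (0.147) and miR-431-3p (0.186), whose fitted line differences, -9.07 to -10.87, were larger and are compressed by the prior count of 2 in this measure. For miR-146b-5p they were miR-365a-3p and miR-365b-3p, which carry the same values (0.186), and let-7e-5p (0.192). For miR-146b-3p the nearest was miR-30a-3p (0.259) and for miR-155-5p it was miR-191-5p (0.126).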

How the data were processed

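Small RNA libraries of AsPC-1 and PANC-1 cells (3 control and 3 si-MYEOV libraries per line, grouped by their titles) were analyzed as deposited. The authors mapped reads with Bowtie to hg19, kept perfect matches of 18 to 28 nt and deposited raw counts per mature miRNA, in which a count covers the most abundant sequence and those with the same 5′ end, so 5′ isoforms are left out. The Bowtie version and miRNA annotation release are not given in the sources used here, and the labels and the methods differ in the harvest time (that of the labels is used). Unlisted miRNAs were set to 0. Library totals were 3805084 to 7311783 counts.

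Counts were tested with edgeR 4.0.16 in R 4.3.3 (filterByExpr with a minimum count of 10, TMM factors, quasi-likelihood F test, no replicate block), with Benjamini-Hochberg adjustment over every miRNA of a comparison and a threshold of 0.05. The knockdown was fitted per line, the line difference in controls and the interaction over 12 libraries. The SE is the absolute LFC over the square root of F. Ratios were compared with exact permutation tests. Alternatives were other scalings, no filter, DESeq2 1.42.0, a replicate block, 1 fit over 12 libraries, another pseudocount and leaving out each library. The scripts were tested on simulated data. The members and lists were chosen with earlier results of these data known. The 4 members, their opposite arms, called members of the list of 15, up to 4 others of it, and the 3 nearest profiles were to be named.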

Additional observations from a re-analysis of the deposited data

Results flagged for a closer look

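The miR-146a-5p to miR-146b-5p ratio was the only result of the members where the test on the difference of the knockdown effects between AsPC-1 and PANC-1 passed the threshold. The null of that permutation test is no knockdown effect in either line, so it does not test whether the effects are equal. The difference of the effects was -0.56 on the log2 scale (exact permutation test, p = 0.005, the smallest it can give, adjusted p = 0.015 over 9 tests), from -0.26 (AsPC-1) and 0.30 (PANC-1). The direction was the same in 3 of 3 si-MYEOV libraries of each line. Leaving out each library in turn gave -0.64 to -0.47, and a pseudocount of 5 gave -0.55. The test was added after the groups had been seen to separate completely in opposite directions, which puts p at its lower limit, so the p is a description of that separation and no independent support, and neither miRNA passed the edgeR interaction test on its own.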

How the results depend on the processing

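The line differences of miR-146a-5p and miR-146b-5p, the line differences of the miR-146a-5p to miR-146b-5p ratio and of the summed seed level, and the absence of a call for miR-146a-5p, miR-146b-3p and miR-155-5p upon knockdown kept their side of the threshold under each alternative run. Upper-quartile factors gave line differences of -0.55 for miR-146b-3p and -0.036 for miR-155-5p, a knockdown LFC of 0.0060 for miR-155-5p in PANC-1, and 4 interaction calls, and without the filter there were 10. Total count scaling gave -0.28 for miR-146b-5p in PANC-1 and turned the difference of the knockdown effects of the summed level from -0.13 to 0.10. DESeq2 gave no adjusted p for miR-146b-3p upon knockdown in either line, which has no value there. A pseudocount of 5 gave -0.70 for the arm ratio between lines (exact permutation p = 0.005). One fit over all 12 libraries gave 67 calls in PANC-1.

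The share of calls that were higher moved with scaling, from 43.5% to 63.3% between the lines under upper-quartile factors and from 57.9% to 18.2% upon knockdown in PANC-1 with total counts. In AsPC-1, 61.4% of the calls were higher, and 35.7% in 1 fit over all 12 libraries. The replicate block gave 29 calls for AsPC-1 and 153 for PANC-1, and changed no call of the 4 members. Same-numbered libraries did not all deviate together (r = -0.155 to 0.139 between control and si-MYEOV of a line). Between the controls of the lines r was 0.248, 0.0827 and 0.158, so not every pair was over 0.1, and the numbers were not taken as pairs.

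Leaving out each library gave 24 (without AsPC-1 si-MYEOV replicate 1) to 102 calls (without AsPC-1 control replicate 1) in AsPC-1, 55 (without PANC-1 si-MYEOV replicate 3) to 129 in PANC-1, and 1 to 25 for the interaction (without AsPC-1 control replicate 1). Knockdown LFCs ranged from -0.15 to 0.028 for miR-146a-5p in AsPC-1 (above 0 without control replicate 2), from -0.22 to -0.10 for miR-146b-5p in PANC-1 and from -0.084 to 0.011 for miR-155-5p in PANC-1 (above 0 without control replicate 2). The interaction of miR-146b-3p ranged from -0.16 to 0.39. For the arm ratio the line difference ranged from -0.66 to -0.37, the mean knockdown effect from -0.55 to -0.26 and the difference of effects from -0.18 to 0.41. The mean knockdown effect ranged from -0.024 to 0.058 for the miR-146a-5p to miR-146b-5p ratio and from 0.058 to 0.10 for the summed level (exact permutation p = 0.015 without AsPC-1 control replicate 2). The cause was not tested. Low counts limit miR-146b-3p.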
